A study of Mus musculus with 6 samples.

Results

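The genes that encode IL-10, TGF-beta1, their receptor chains, the TGF-beta signal carrier SMAD3, the inhibitor SMAD7 and the IL-27 and IL-35 chain EBI3 were examined in libraries labelled as CD8+ TRLs, which are CD8+CD122+CD49dlow regulatory-like T cells sorted by FACS. The markers of the libraries labelled tMCAO brain go against that label, as given below. The 9 genes were taken by symbol (Il10, Il10ra, Il10rb, Tgfb1, Tgfbr1, Tgfbr2, Smad3, Smad7 and Ebi3) from a table of 24394 gene symbols. All 9 were in the count table and all 9 passed the filter on low counts, along with 12424 genes in total. RNA was sequenced from 3 groups of 2 libraries, each from 500 to 1000 sorted cells. All mice were WT, 9 weeks old and labelled C57BL/6NCrl, whereas the methods of the study name C57BL/6J. The sham blood group came from the blood of sham-operated mice. The tMCAO blood and tMCAO brain groups came from the blood and brain of mice after transient occlusion of the middle cerebral artery (tMCAO) for 60 minutes. Cells were collected 3 days after surgery. The labels do not say that the 2 libraries of a group came from separate mice or pools, so p values measure the spread between these libraries, which may be technical. The comparisons ask how the transcripts of TRLs in blood change after stroke and how those of cells sorted as TRLs from the injured brain differ from those in blood.

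IL-10 is an antiinflammatory cytokine that binds IL-10RA, its own receptor chain, and IL-10RB, a chain shared with other cytokines of the family. The receptor signals through JAK1, TYK2 and STAT3. TGF-beta1 is secreted in a latent form, and once released it binds TGFBR2, which activates the kinase TGFBR1. TGFBR1 in turn phosphorylates SMAD2 and SMAD3, which enter the nucleus with SMAD4, whereas SMAD7 blocks the receptor and is itself induced by the pathway. EBI3 pairs with the p28 chain to form IL-27 and with the p35 chain of IL-12 to form IL-35. IL-10, TGF-beta1 and IL-35 are known as products of regulatory T cells, and IL-10 and TGF-beta1 are also made by macrophages and microglia.

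RefSeq promoter windows of GRCm38.p6, which run from 250 bases before to 50 bases after a start site, were matched for Tgfb1, Tgfbr1, Tgfbr2, Smad3 and Ebi3. Windows of Smad7, Il10, Il10ra and Il10rb are not given here, so the letter searches below do not cover those genes. Those of Tgfbr1, Tgfbr2 and Ebi3 are shown because Tgfbr1 and Ebi3 had the smallest p values of the 9 genes, a choice made after the values were seen, and Tgfbr2 is the partner receptor of Tgfbr1. Each is written 5′ to 3′ along the gene, and capitals mark the SMAD-binding letters CAGAC on either strand (GTCTG where the match is on the opposite strand). The Tgfbr1 window is chr4:47352972-47353271 on the plus strand. The Tgfbr2 window is chr9:116175314-116175613 on the minus strand. The Ebi3 window is chr17:55952373-55952672 on the plus strand.
Tgfbr1: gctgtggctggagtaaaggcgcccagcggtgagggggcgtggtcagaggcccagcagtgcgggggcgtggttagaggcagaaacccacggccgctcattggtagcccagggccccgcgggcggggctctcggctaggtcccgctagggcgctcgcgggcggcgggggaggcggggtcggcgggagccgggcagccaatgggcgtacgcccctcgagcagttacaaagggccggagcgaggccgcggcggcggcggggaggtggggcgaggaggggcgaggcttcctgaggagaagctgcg
Tgfbr2: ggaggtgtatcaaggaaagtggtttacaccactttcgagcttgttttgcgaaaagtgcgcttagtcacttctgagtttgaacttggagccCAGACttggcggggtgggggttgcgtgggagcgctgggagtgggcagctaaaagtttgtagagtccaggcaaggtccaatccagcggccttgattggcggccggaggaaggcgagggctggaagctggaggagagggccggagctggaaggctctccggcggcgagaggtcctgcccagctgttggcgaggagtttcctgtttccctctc
Ebi3: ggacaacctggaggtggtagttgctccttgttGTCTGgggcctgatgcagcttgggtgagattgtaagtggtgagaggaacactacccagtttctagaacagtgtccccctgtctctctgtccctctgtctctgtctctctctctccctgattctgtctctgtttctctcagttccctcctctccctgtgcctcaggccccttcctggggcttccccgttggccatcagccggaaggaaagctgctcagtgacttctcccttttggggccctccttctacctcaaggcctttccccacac
The Tgfbr1 window has a GC content of 74.7% with 34 CpG, the Tgfbr2 window 59.0% with 15 CpG and the Ebi3 window 56.3% with 2 CpG, beside a median of 52.7% and 7 CpG over 32851 windows. CAGAC was found in the Tgfbr2 and Ebi3 windows and not in the Tgfbr1 window shown. A second RefSeq start site of Tgfbr1 has a window (chr4:47385966-47386265, GC content 52.0% with 3 CpG) that does hold CAGAC, and 49.6% of the 32851 windows hold it. The SMAD palindrome GTCTAGAC (0.213% of windows; it does not contain CAGAC or GTCTG), the PU.1 letters GAGGAAGT (3.2%) and the AP-1 letters TGANTCA (7.81%), searched on both strands, were in none of the windows of these 5 genes. A match describes letters only, and no binding was measured.

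In GRCm38 with the GENCODE M21 annotation, Il10 lies on chromosome 1 (131019845 to 131024974, plus strand) and Tgfb1 on chromosome 7 (25687002 to 25705077, plus strand). Ebi3 lies on chromosome 17 (55952640 to 55957022, plus strand). Il10ra lies on chromosome 9 (45253837 to 45269149, minus strand) and Il10rb on chromosome 16 (91406164 to 91425834, plus strand). Tgfbr1 lies on chromosome 4 (47353222 to 47414931, plus strand) and Tgfbr2 on chromosome 9 (116084293 to 116175360, minus strand). Smad3 lies on chromosome 9 (63646767 to 63757994, minus strand) and Smad7 on chromosome 18 (75367529 to 75395935, plus strand). Values are counts of reads over whole genes, so they do not separate exons or isoforms.

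Counts on genes were 13793081 to 17149924 per library. Before any comparison, the labelled cell type was checked against its markers, because the libraries labelled tMCAO brain stood apart. Levels are CPM, counts scaled to a common library size, after TMM, a scaling that assumes that most genes do not change. Cd8a, a chain of the CD8 coreceptor used for the sort, was at 949 and 867 CPM in sham blood and reached 795 and 1286 CPM in tMCAO blood. In the libraries labelled tMCAO brain it was at 2.30 and 2.195 CPM, from 25 and 24 counts. The summed level of 16 T cell identity genes stood at 11100 and 10780 CPM in sham blood, at 11750 and 16970 CPM in tMCAO blood and at 75.4 and 58.7 CPM in the libraries labelled tMCAO brain, where all 16 still had a count. The summed level of 12 microglia markers was 9917 and 21130 CPM in the libraries labelled tMCAO brain and 189 to 267 CPM in blood. Tmem119, a microglial marker, was at 215 and 407 CPM there, at 0 in both sham blood libraries and at 0 and 0.207 CPM in tMCAO blood. Monocyte and macrophage markers, also 12 genes, summed to 28720 and 24360 CPM in the libraries labelled tMCAO brain, where sham blood had 2016 and 3356 CPM and tMCAO blood 1197 and 1576 CPM. In tMCAO blood Csf1r and Adgre1, which mark that lineage, were at 0. Ly6c2, on the same list, went the other way. It was at 927 to 1393 CPM in the blood libraries and at 84.3 and 51.95 CPM in the libraries labelled tMCAO brain. With Ccr2, at 213.5 and 160.2 CPM in tMCAO blood, Ly6c2 made up most of the tMCAO blood sums. Summed B cell markers stood at 1132 and 655 CPM in sham blood, at 31.8 and 86.2 CPM in tMCAO blood and at 45.1 and 68.1 CPM in the libraries labelled tMCAO brain. The markers thus go against the TRL label of these libraries, and whether they were made from other cells was not tested. The word brain below stands for the libraries carrying that label. These levels move with the groups, and their part in the results on the 9 genes was not tested. In such bulk samples, fewer cells of a type and less RNA per cell cannot be told apart.

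**Figure D1:**
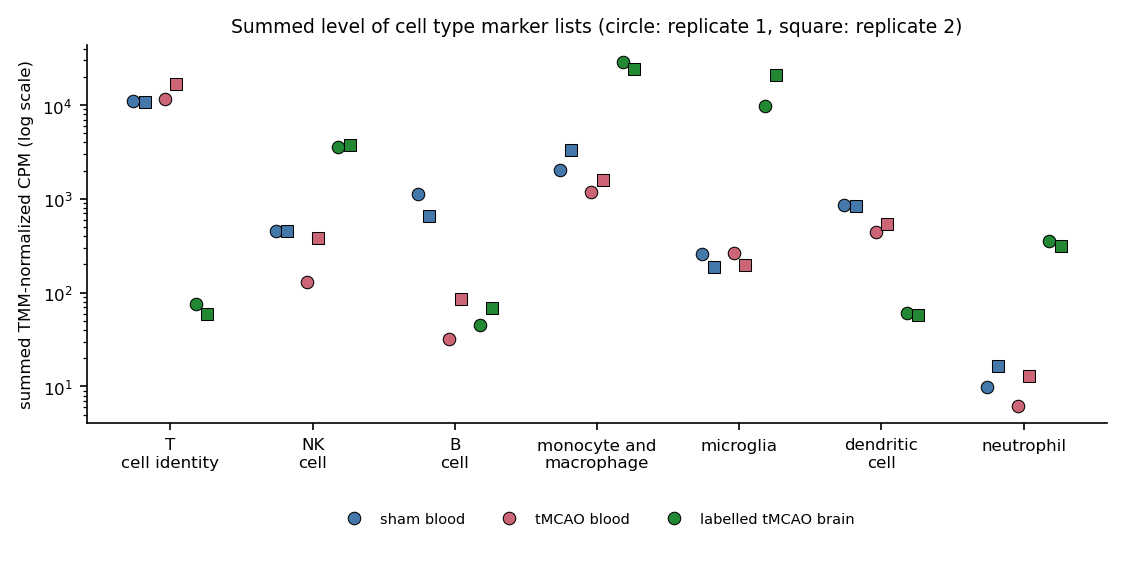
Summed TMM-normalized CPM of 7 cell type marker lists in each of the 6 libraries, on a log axis. The libraries labelled tMCAO brain sit at 58.7 and 75.4 CPM for T cell identity genes, below the 10780 to 16970 CPM of the blood libraries, and above the blood libraries for microglia and for monocyte and macrophage markers. The NK cell list rises there through Fcer1g, which myeloid cells also express and which held 3590 and 3764 CPM of the sum.

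In the libraries labelled tMCAO brain, 5 of the 9 genes were higher than in sham blood and 0 were lower. The 5 were both chains of the IL-10 receptor, both chains of the TGF-beta receptor and Ebi3, and the widest of these changes was that of Tgfbr1, at 10.4-fold. Genes were called at an adjusted p under 0.05 in edgeR's quasi-likelihood test with Benjamini-Hochberg adjustment over 12424 genes and a fold change over 2. Of all genes, 18.7% were called higher and 11.8% lower, so the share of the 9 genes called higher was above and the share called lower below that of all genes, on a small number. The median log2 fold change of the 9 genes was 1.78 and that of all genes 0.13. Without regard to adjustment, 7 of the 9 had p under 0.05, all in the higher direction, beside 3156 higher and 2213 lower of the 12424 genes. DESeq2 on all 6 libraries called 7 higher and 0 lower, beside 20.8% and 14.5% of all genes. Leaving out 1 library lowered the count to 1 (without sham blood replicate 1 or 2) or 2 (without brain replicate 1 or 2) and raised it to 7 (without tMCAO blood replicate 1 or 2). The share of all genes called higher moved along with it, to 7.97%, 8.74%, 7.31%, 7.38%, 22.5% and 21% in the same order. In such fits a lone library is assumed to vary like the other groups.

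Against tMCAO blood, 7 of the 9 genes were higher in the libraries labelled tMCAO brain and 0 were lower, with Il10 and Tgfb1 joining the other 5. Of all genes, 20.4% were called higher and 13.2% lower by the same rule. The median log2 fold change was 1.77 for the 9 genes and 0.05 for all genes. DESeq2 on all 6 libraries also called 7 higher and 0 lower, beside 22.8% and 15.6% of all genes. Without brain replicate 1 or brain replicate 2 the count was 3, beside 9.68% and 9.60% of all genes. The comparisons of brain with the 2 blood groups share the brain libraries and are not independent of each other.

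Between tMCAO blood and sham blood, Ebi3 was lower after stroke and the other 8 genes were not called. The count of genes called higher was 0 among the 9, and 0% of all genes were called higher by edgeR's quasi-likelihood test. At an unadjusted p under 0.05, 0 of the 9 genes were higher and 1, Ebi3, was lower, beside 243 higher and 727 lower of all genes. DESeq2 on all 6 libraries called 0 of the 9 genes higher and 1 lower, beside 13 and 359 of all genes. The 1 gene called lower by edgeR stood beside 0.821% of all genes, and the median log2 fold change of the 9 genes was -0.42 beside 0.03 for all genes. The 2 tMCAO blood libraries differed from each other more than other replicates did, with an SD of the log2 ratio between replicates of 0.943 against 0.495 in sham blood and 0.584 in brain. Without tMCAO blood replicate 1 the count called lower was 3, with Il10 and Tgfb1 joining Ebi3, beside 3.58% of all genes. Without brain replicate 1 or 2 it was 0, as it was for all genes.

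**Figure D2:**
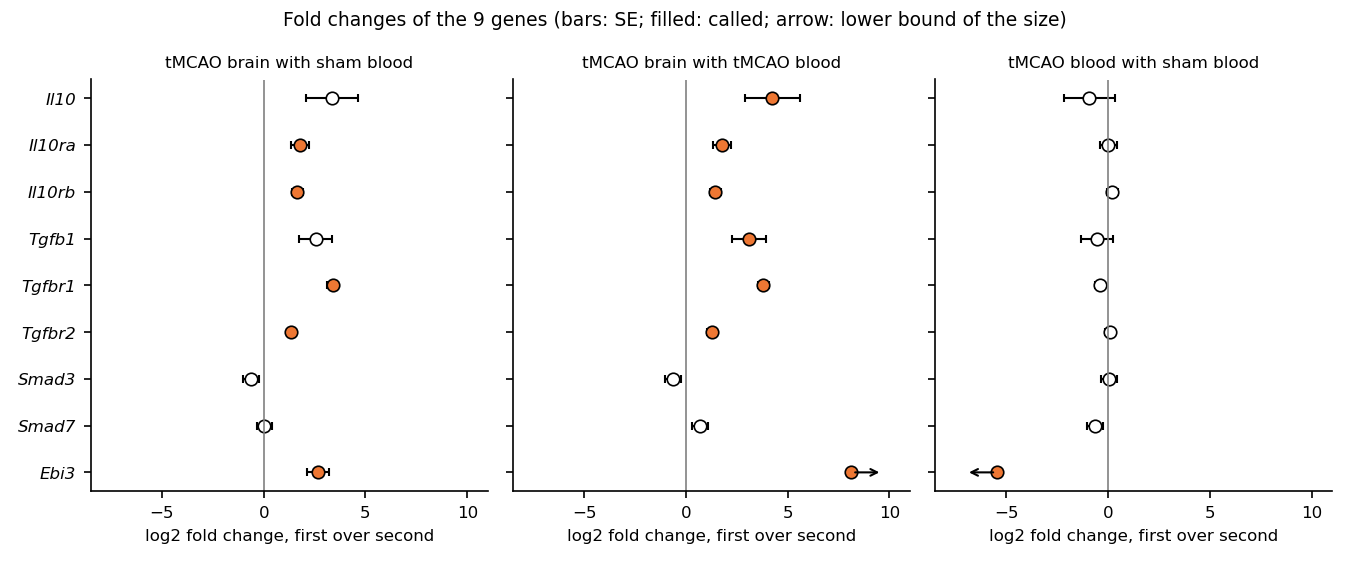
Log2 fold change of the 9 genes in the 3 comparisons, first-named group over the second, with SE bars from edgeR's quasi-likelihood test. Filled points were called, and an arrow marks Ebi3 where tMCAO blood had 0 counts and the point is the lower bound of the size. In the left panel the receptor chains and Ebi3 lie between 1.36 and 3.38, whereas Smad7 lies at 0.03 and Smad3 at -0.62, which scaling to T cell identity genes turned to 6.67.

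The libraries have very different contents, and the counts of genes called in the brain comparisons depended on how they were scaled. Il10, Il10ra, Il10rb, Tgfb1, Tgfbr1, Tgfbr2 and Ebi3 were higher in brain than in either blood group under each alternative run, whereas Smad3 reversed with scaling to T cell identity genes and Smad7 changed sign against sham blood. Scaling to equal levels of T cell identity genes, which expresses each gene per unit of T cell RNA, moved the median log2 fold change of all genes by 7.23 against sham blood and by 7.43 against tMCAO blood. On that scale all 9 genes were called higher in both brain comparisons, but 11815 and 11868 of the 12424 genes were as well, with 13 and 8 called lower. TMM scaling had called 2326 higher and 1471 lower against sham blood and 2530 higher and 1640 lower against tMCAO blood. Scaling by library size alone called 1606 higher and 2709 lower against sham blood and 1938 higher and 2863 lower against tMCAO blood. The results on each gene below use TMM.

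Among the ligands, Il10 was low in blood and higher in the libraries labelled tMCAO brain. It was at 2.60 and 1.95 CPM in sham blood (51 and 38 counts), 2.38 CPM and 0 in tMCAO blood (46 and 0 counts) and 19.0 and 27.2 CPM in the libraries labelled tMCAO brain (206 and 297 counts). The brain libraries did not overlap with blood, whereas the tMCAO blood replicates disagreed, since 1 of them had no read of Il10. At its depth a count of 0 allows up to 3 counts, or 0.175 CPM, for counting error only. The log2 fold change of brain over sham blood was 3.34 ± 1.28 (SE), which did not pass (edgeR adjusted p = 0.0877). That over tMCAO blood was 4.25 ± 1.34 (SE) and passed (edgeR adjusted p = 0.0465). Both results changed with the libraries in the fit. Without tMCAO blood replicate 1 or 2 the edgeR adjusted p against sham blood was 0.00152 or 0.00202, and in a fit of the brain and sham blood libraries alone it was 0.00187. The call against tMCAO blood was lost without sham blood replicate 1 or 2 (edgeR adjusted p = 0.0706 and 0.0671) and without brain replicate 1 or 2 (0.148 and 0.190), and with scaling by library size alone (0.0822). Against sham blood, DESeq2 (adjusted p = 0.0405) and limma on log2(FPKM + 1) (adjusted p = 0.0335) called Il10 higher. The tMCAO blood and sham blood groups did not differ for Il10 with all libraries (log2 fold change -0.91 ± 1.24, edgeR adjusted p = 0.910). Without tMCAO blood replicate 1, which leaves the library with 0 counts, the edgeR adjusted p was 0.0298.

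Tgfb1, which encodes the TGF-beta1 ligand, had the same arrangement. It was at 14.6 and 18.3 CPM in sham blood, at 19.9 and 2.75 CPM in tMCAO blood and at 119 and 73.9 CPM in the libraries labelled tMCAO brain. The brain libraries were above all 4 blood libraries, and tMCAO blood replicate 2 was the lowest of the 6, as it was for Il10. The log2 fold change of brain was 2.55 ± 0.809 (SE) over sham blood, just outside the threshold (edgeR adjusted p = 0.0504), and 3.09 ± 0.829 (SE) over tMCAO blood (edgeR adjusted p = 0.0273). Without tMCAO blood replicate 1 or 2 the edgeR adjusted p against sham blood was 0.00140 or 0.00175. Against tMCAO blood it was 0.142 without brain replicate 1 and 0.0795 without brain replicate 2, and 0.0626 with scaling by library size alone. DESeq2 called Tgfb1 higher against sham blood (adjusted p = 0.00604), and on log2(FPKM + 1) it was called in neither comparison (limma adjusted p = 0.143 and 0.0690). In tMCAO blood over sham blood it was -0.54 ± 0.775 (SE) with an edgeR adjusted p of 0.920. It was -2.58 with an edgeR adjusted p of 0.0344 without tMCAO blood replicate 1.

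Ebi3, which encodes the shared chain of IL-27 and IL-35, was the gene called in all 3 comparisons. It was at 4.59 and 2.57 CPM in sham blood (90 and 50 counts), at 0 in both tMCAO blood libraries and at 20.2 and 25.4 CPM in the libraries labelled tMCAO brain (219 and 278 counts). No library of a group overlapped with another group. The 0 counts in tMCAO blood allow up to 3 counts over the group, or 0.0823 CPM, for counting error only. By the group means and this floor, Ebi3 was at least 43.5-fold lower in tMCAO blood than in sham blood (edgeR adjusted p = 0.0271). It was at least 277-fold higher in the libraries labelled tMCAO brain than in tMCAO blood (edgeR adjusted p = 0.000692). Over sham blood its log2 fold change in brain was 2.67 ± 0.548 (SE), or 6.36-fold (edgeR adjusted p = 0.0153). The call in blood was lost without brain replicate 1 or 2 (edgeR adjusted p = 0.147 in each) and in a fit of the blood libraries alone (0.223). The call of brain over sham blood was lost without sham blood replicate 1 or 2 (edgeR adjusted p = 0.0548 and 0.1001) or brain replicate 1 or 2 (0.0904 and 0.126). Ebi3 overlaps the antisense gene Gm16712, and the strand setting of the counts is not given in the sources used here. B cell markers, which were lower in tMCAO blood than in sham blood, moved with Ebi3 between the blood groups, and their part in it was not tested.

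**Figure D3:**
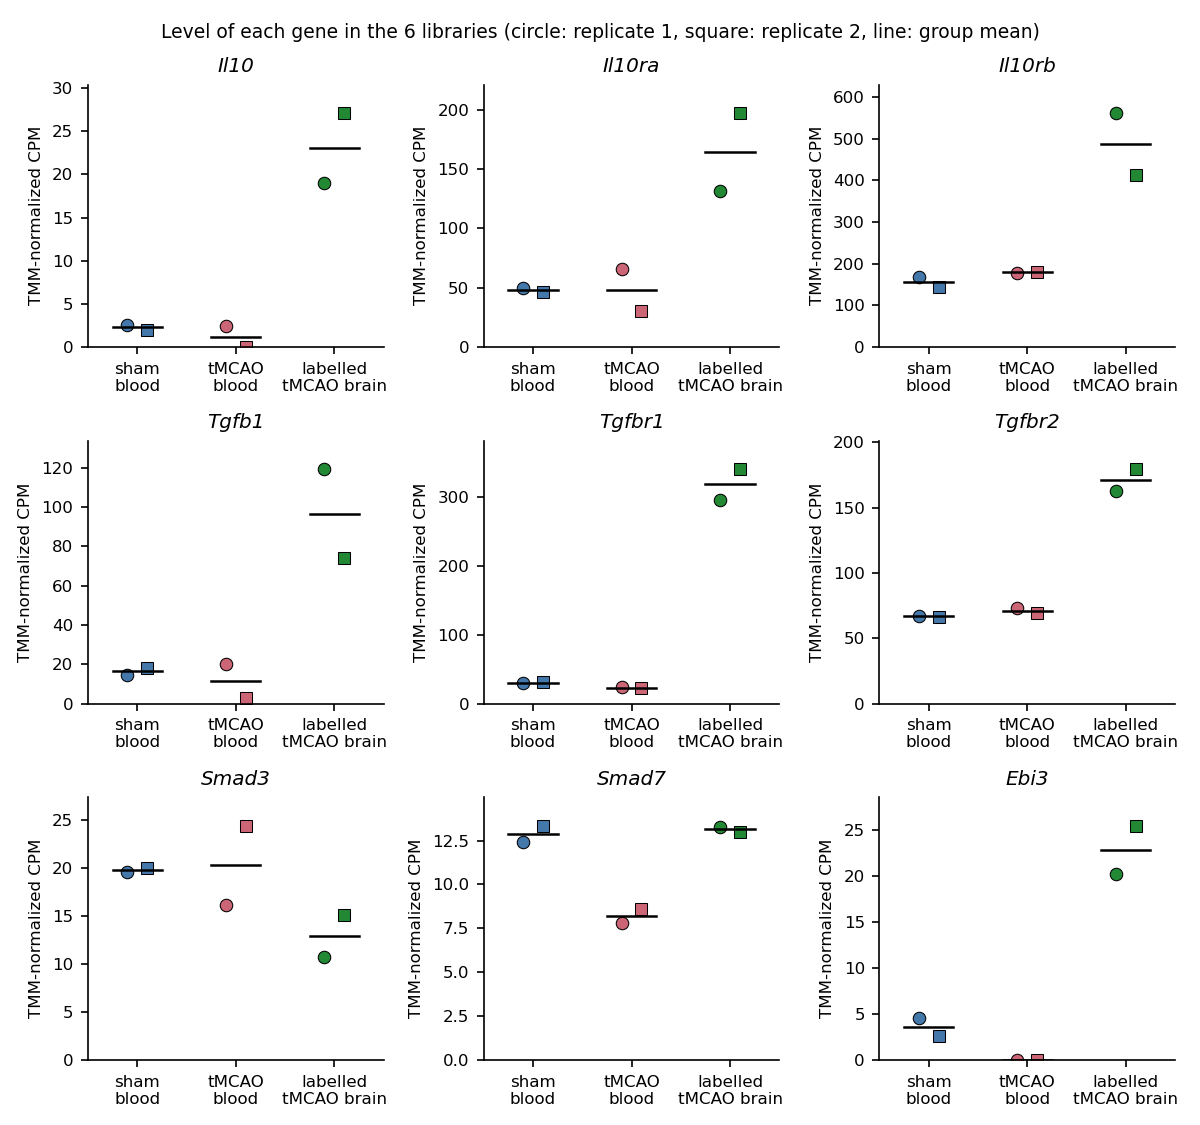
TMM-normalized CPM of each of the 9 genes in the 6 libraries, on linear axes from 0, with the group mean as a line. The brain libraries lie above the blood libraries for Il10, Il10ra, Il10rb, Tgfb1, Tgfbr1, Tgfbr2 and Ebi3, and tMCAO blood replicate 2 is at 0 for Il10 and at 2.75 CPM for Tgfb1. Smad3 is lowest in brain on this scale, where scaling to T cell identity genes places it higher than in blood by 6.67 (sham blood) and 6.84 (tMCAO blood) log2 units.

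Of the IL-10 receptor chains, Il10ra was at 49.5 and 46.2 CPM in sham blood, at 66.03 and 29.99 CPM in tMCAO blood and at 131 and 197 CPM in the libraries labelled tMCAO brain. The brain libraries were above the 4 blood libraries, and the tMCAO blood libraries lay on either side of sham blood. Its level in brain was 3.43-fold that of sham blood, a log2 fold change of 1.78 ± 0.423 (SE) with an edgeR adjusted p of 0.0193. It was 3.42-fold that of tMCAO blood (edgeR adjusted p = 0.0178). Against sham blood the edgeR adjusted p was 0.115, 0.123, 0.0615 and 0.146 without sham blood replicate 1, sham blood replicate 2, brain replicate 1 and brain replicate 2. Against tMCAO blood it was 0.0530 and 0.130 without brain replicate 1 and brain replicate 2. With scaling by library size alone the log2 fold changes of Il10ra were 1.21 over sham blood and 1.23 over tMCAO blood and did not pass (edgeR adjusted p = 0.0869 and 0.0774). On the log2(FPKM + 1) scale brain exceeded them by 0.72 and 1.01, which did not pass either (limma adjusted p = 0.194 and 0.0846). The tMCAO blood and sham blood groups differed by 0.00 ± 0.411 (SE) on the log2 scale.

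Il10rb, the shared chain, was at 168 and 143 CPM in sham blood, at 178 and 181 CPM in tMCAO blood and at 563 and 412 CPM in the libraries labelled tMCAO brain. The blood groups lay close together and both brain libraries were above them. Brain exceeded sham blood by 1.65 ± 0.272 (SE) on the log2 scale (edgeR adjusted p = 0.00491) and tMCAO blood by 1.44 ± 0.271 (SE) (edgeR adjusted p = 0.00715). Against sham blood the call was lost without sham blood replicate 1 (edgeR adjusted p = 0.0531), sham blood replicate 2 (0.0729) or brain replicate 1 (0.0535), and against tMCAO blood without brain replicate 1 (0.0722). With scaling by library size alone the difference from tMCAO blood was 0.95, under the fold threshold. In the deposited FPKM values, which are per length, Il10rb has no value of its own in the brain libraries. A line that joins it with Ifnar2, a type I interferon receptor gene 575 bp away on the same strand, holds 441 and 405 FPKM there. The gene Gm21970 spans parts of both. Ifnar2 was counted separately at 111, 120, 105 and 110 CPM in the 4 blood libraries and 302 and 337 CPM in the brain libraries, so its counts were also higher in brain.

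Tgfbr1, the kinase chain of the TGF-beta receptor, changed strongly and with a small error. It was at 29.1 and 31.9 CPM in sham blood, at 23.4 and 22.2 CPM in tMCAO blood and at 296 and 340 CPM in the libraries labelled tMCAO brain. Replicates agreed closely in all 3 groups and brain did not overlap with blood. In brain it reached 10.4-fold that of sham blood (log2 fold change 3.38 ± 0.257 SE, edgeR adjusted p = 0.000312) and 14.0-fold that of tMCAO blood (3.80 ± 0.262 SE, edgeR adjusted p = 0.000176). It was called in both comparisons in each fit that left out 1 library, with adjusted p of at most 0.00735 and 0.00343. The log2 fold change of tMCAO blood over sham blood was -0.42 ± 0.237 (SE), which did not pass (edgeR adjusted p = 0.721). The deposited FPKM values of this gene went a different way. They were 10.02 and 32.6 FPKM in sham blood, 26.7 and 47.3 FPKM in tMCAO blood and 37.2 and 42.5 FPKM in brain, where counts had been 570, 621, 452, 379, 3211 and 3717. On the log2(FPKM + 1) scale brain exceeded sham blood by 1.08 (limma adjusted p = 0.173) and tMCAO blood by 0.16 (limma adjusted p = 0.841). Tgfbr1 was thus called on counts and not on FPKM, and the source of the difference was not tested. Its promoter window, the most GC-rich of those shown above, belongs to the first of its start sites in RefSeq.

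Tgfbr2, the ligand-binding chain, rose as well. It was at 67.1 and 66.3 CPM in sham blood, at 72.9 and 69.0 CPM in tMCAO blood and at 163 and 180 CPM in the libraries labelled tMCAO brain. All 4 blood libraries lay within a narrow band and both brain libraries were above it. The log2 fold change of brain was 1.36 ± 0.234 (SE) over sham blood (edgeR adjusted p = 0.00574) and 1.27 ± 0.233 (SE) over tMCAO blood (edgeR adjusted p = 0.00649). Against sham blood the call was lost without sham blood replicate 1 (edgeR adjusted p = 0.0882), sham blood replicate 2 (0.0866) or brain replicate 2 (0.0698), and against tMCAO blood without brain replicate 2 (0.0725). The deposited values were 13.6 FPKM in both sham blood libraries, 15.7 and 14.4 FPKM in tMCAO blood and 24.6 and 26.7 FPKM in brain. On the log2(FPKM + 1) scale brain exceeded sham blood by 0.87 (limma adjusted p = 0.0417), under the fold threshold, and tMCAO blood by 0.73 (limma adjusted p = 0.0663). With scaling by library size alone the log2 fold changes of Tgfbr2 were 0.79 and 0.77, under the fold threshold as well.

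Neither SMAD was called in any of the 3 comparisons with TMM scaling. Smad3, which carries the signal to the nucleus, was at 19.6 and 20.0 CPM in sham blood, at 16.1 and 24.4 CPM in tMCAO blood and at 10.7 and 15.1 CPM in the libraries labelled tMCAO brain. The brain libraries were below the 4 blood libraries, but the log2 fold changes of -0.62 ± 0.391 (SE) over sham blood and -0.65 ± 0.392 (SE) over tMCAO blood did not pass (edgeR adjusted p = 0.273 and 0.237). With scaling by library size alone they were -1.19 and -1.12 and passed (edgeR adjusted p = 0.0453 and 0.0496), and with scaling to T cell identity genes they were 6.67 and 6.84. Smad7, the inhibitor, was at 12.4 and 13.3 CPM in sham blood, at 7.81 and 8.59 CPM in tMCAO blood and at 13.3 and 12.99 CPM in brain. Brain overlapped with sham blood, and tMCAO blood was below both. In tMCAO blood over sham blood, Smad7 had a log2 fold change of -0.65 ± 0.382 (SE), which did not pass (edgeR adjusted p = 0.729). That of brain over tMCAO blood was 0.68 ± 0.383 (SE), which did not pass either (edgeR adjusted p = 0.212).

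Ratios of counts between 2 genes of the same library do not depend on how libraries are scaled. Counts of Tgfbr1 were 0.433 and 0.481 times those of Tgfbr2 in sham blood, 0.321 and 0.321 times in tMCAO blood and 1.82 and 1.89 times in the libraries labelled tMCAO brain. The brain ratios were thus above those of all 4 blood libraries. Counts of Il10ra were 0.294 and 0.323 times those of Il10rb in sham blood, 0.370 and 0.166 times in tMCAO blood and 0.233 and 0.479 times in brain, so the groups overlapped. Counts of Smad7 were 0.635 and 0.668 times those of Smad3 in sham blood, 0.484 and 0.352 times in tMCAO blood and 1.24 and 0.861 times in brain, with no overlap between groups. Counts of Il10 were 0.0525 and 0.0422 times those of Il10ra in sham blood, 0.0361 and 0 times in tMCAO blood and 0.145 and 0.138 times in brain. Set against Cd8a, Il10 was at 0.00274 and 0.00225 counts per count of Cd8a in sham blood and at 8.24 and 12.4 in brain, where Cd8a itself had 25 and 24 counts. An exact 2-sided permutation test of 2 libraries against 2 cannot go below a p of 0.333, so these ratios are given without a test.

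**Figure D4:**
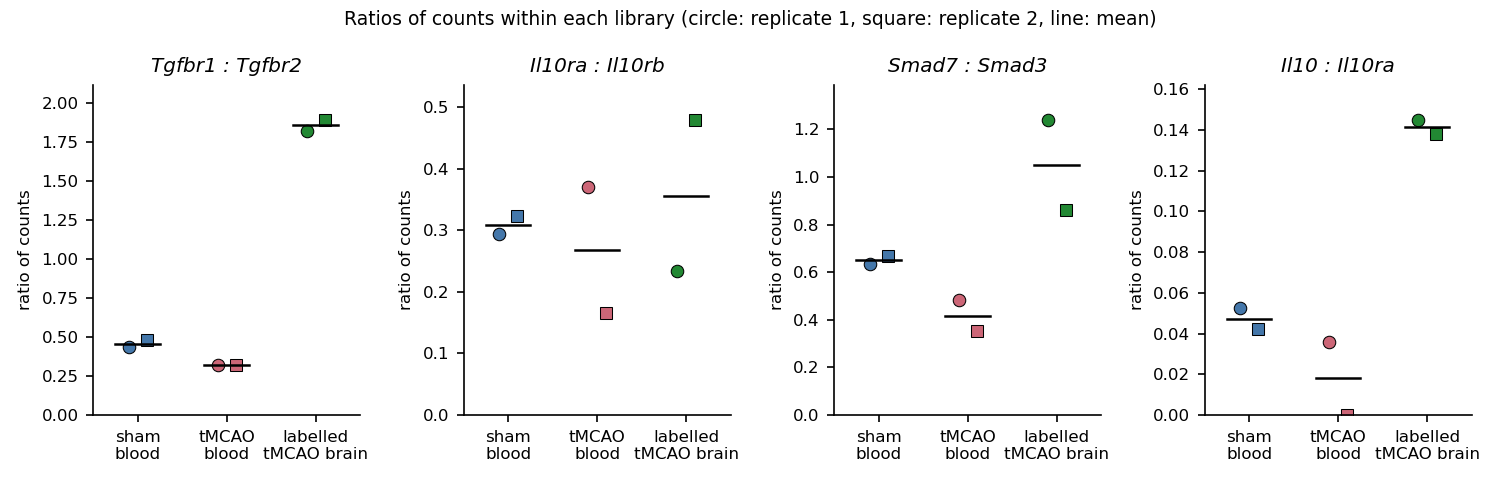
Ratios of counts within each of the 6 libraries for 4 gene pairs, on linear axes from 0, with the group mean as a line. The Tgfbr1 to Tgfbr2 ratio is 1.82 and 1.89 in the libraries labelled tMCAO brain and 0.321 to 0.481 in blood, whereas the Il10ra to Il10rb ratio overlaps between groups.

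Levels of different genes were set side by side on the deposited FPKM scale, on which Tgfbr1 did not follow its counts. In sham blood the order by mean FPKM was Il10rb (87.3), Tgfbr1 (21.3), Il10ra (21.1), Tgfbr2 (13.6), Tgfb1 (8.62), Smad7 (4.13), Smad3 (4.002), Ebi3 (2.59) and Il10 (1.77). Tgfbr1 and Il10ra overlapped between libraries, as did Smad7 and Smad3, and the other neighbors did not. In the libraries labelled tMCAO brain Tgfbr1 (39.9 FPKM), Tgfb1 (35.3 FPKM) and Il10ra (34.3 FPKM) led and overlapped with each other, followed by Tgfbr2 (25.6 FPKM), and Il10rb has no value of its own. Ebi3 (14.7 FPKM) and Il10 (14.6 FPKM) overlapped with each other, and Smad7 (3.20 FPKM) and Smad3 (2.04 FPKM) came last and overlapped as well. In tMCAO blood Il10rb (102 FPKM) and Tgfbr1 (37.0 FPKM) stood above the rest, and Ebi3 was listed at 0. Counts per kb of annotated exon gave Il10rb as highest in all 3 groups (40.9, 47.2 and 128 CPM per kb), with Tgfbr1 at 4.66, 3.49 and 48.7 CPM per kb in sham blood, tMCAO blood and brain. Tgfbr2 was at 8.15, 8.67 and 20.9 CPM per kb in the same order. In both blood groups Tgfbr1 was thus above Tgfbr2 by FPKM and below it per kb of exon.

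The genes whose pattern over the 6 libraries was most like that of each of the 9 are given as a description, by Pearson's r of log2(CPM + 1). These 6 points share 3 groups and their depth, and a brain to blood difference alone gives a high r, so 13.2% of genes reached r over 0.95 with Tgfbr1 and 12.3% with Tgfbr2. Among the nearest were A230056P14Rik and Pou2f2 for Il10, Pls3 for Il10ra, and Stx12 and Decr2 for Il10rb. They were Gpr137 and Ssbp4 for Tgfb1, 1700112E06Rik and Alox5 for Tgfbr1, and Omg and Cpd for Tgfbr2. For Smad3 they were Tspan13 and Invs. For Smad7 they were Cd74 and Ifitm6, with r of 0.986 and 0.985. For Ebi3, which had 2.28% of genes at r over 0.95, they were Pkib and Irak3, with r of 0.997 and 0.996. Some of the nearest genes had low levels. Omg was at 0 to 0.0517 CPM in blood and at 0.829 and 1.01 CPM in brain, and A230056P14Rik reached at most 3.93 CPM.

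Other genes of these pathways were taken as 7 lists with 85 genes, of which 65 were tested. Against sham blood, 28 (43.1%) were higher and 9 (13.8%) lower in the libraries labelled tMCAO brain, beside 18.7% and 11.8% of all genes. Scaling to T cell identity genes called 57 of the 65 higher and 0 lower there, beside 11815 higher and 13 lower of all 12424 genes. Against tMCAO blood 30 (46.2%) were higher and 9 (13.8%) lower, beside 20.4% and 13.2% of all genes. That scaling called 60 higher and 0 lower, beside 11868 higher and 8 lower of all genes. Its counts are thus not read as particular to the pathway genes, here or in the lists below. In tMCAO blood against sham blood 0 were higher and 1 was lower, by edgeR's quasi-likelihood test in each case. In that comparison scaling to T cell identity genes called 2 lower, beside 209 of all genes, and DESeq2 called 6 lower. Both called 0 of the pathway genes higher. The counts of each list below are read against the same shares of all genes, 18.7% higher and 11.8% lower than in sham blood. Il12b, Il1rn, Cd163 and Tgfb3, among others, passed the filter through the brain libraries alone, so they could only be called higher there. Eomes, Gata3, Il12rb2 and Itgae, among others, passed through the blood libraries and had at most 9 counts in a brain library. With TMM scaling they could thus only be called lower in brain. Il12a passed through the sham blood libraries alone, so with TMM scaling brain could only be called lower than sham blood. Over tMCAO blood, where it had 0 counts, its log2 fold change in brain was 4.94 and did not pass (edgeR adjusted p = 0.136). Such genes enter these counts. In the same brain libraries the summed microglia and the summed monocyte and macrophage markers were higher and the summed T cell identity genes lower. Their part in these lists was not tested.

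Of the 15 kinases and response genes of the IL-10 receptor, all tested, 8 were higher and 2 lower in brain than in sham blood, with a median log2 fold change of 2.17. Socs3, which feeds back on STAT3 signaling, was at 34.2 and 44.5 CPM in the sham blood libraries and at 193 and 491 CPM in the brain libraries (edgeR adjusted p = 0.0211). Bcl3 and Nfil3, nuclear regulators induced by IL-10 in macrophages, rose 4.76-fold and 3.67-fold (edgeR adjusted p = 0.00419 and 0.00684). Il4ra, an IL-4 receptor chain, rose 6.88-fold and Sbno2, a nuclear corepressor, rose 9.33-fold (edgeR adjusted p = 0.00338 and 0.0143). Hmox1, a heme-degrading enzyme, was at 6.53 to 6.88 CPM in sham blood and 938 to 992 CPM in brain (edgeR adjusted p = 0.00479). Cd163, a scavenger receptor that marks macrophages, was at 0 and 0.103 CPM in sham blood and 93.4 to 154 CPM in brain. Il1rn, the IL-1 receptor antagonist, was at 0 and 0.873 CPM in sham blood and 175 to 258 CPM in brain. Jak1, the kinase of the receptor, fell from 911 to 932 CPM in sham blood to 210 to 219 CPM in brain (edgeR adjusted p = 0.00448), and Socs1 fell as well (edgeR adjusted p = 0.0191), although both were higher on the scale of T cell identity genes, with log2 values of 5.13 and 5.45. Stat3 was at 76.0 to 84.1 CPM in sham blood and 158 to 269 CPM in brain and did not pass (edgeR adjusted p = 0.0882).

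Of 11 factors that control Il10 transcription, 2 were higher and 2 lower in brain than in sham blood, which is close to the 18.7% and 11.8% of all genes, and the median log2 fold change of 0.14 was near that of all genes (0.13). Maf rose 16.9-fold and Cebpb rose 44.3-fold (edgeR adjusted p = 0.00184 and 0.00198). Cebpb is known for its role in myeloid cells. Eomes and Gata3, T cell transcription factors, fell, from 56.1 to 58.7 CPM to 0 and 0.457 CPM and from 39.9 to 43.9 CPM to 0.0921 and 0.183 CPM (edgeR adjusted p = 0.000905 and 0.000386). Both passed the filter through the blood libraries alone, so with TMM scaling they could only be called lower in brain. On the scale of T cell identity genes Eomes and Gata3 were at log2 fold changes of -0.61 and -1.01.

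Among the partners of EBI3, Il27, which encodes p28, was not tested and lay at mean levels of 0.255 CPM in sham blood, 0 in tMCAO blood and 0.641 CPM in brain. Il12a, which encodes p35, was at 3.03 and 4.08 CPM in sham blood, 0 in both tMCAO blood libraries and 0 and 0.457 CPM in brain, and no comparison of it passed in edgeR. DESeq2 called it lower in tMCAO blood than in sham blood (adjusted p = 0.0144), where the edgeR adjusted p was 0.243. Il12a and Ebi3 thus both had 0 counts in both tMCAO blood libraries. Il12b, the p40 chain, was at 0 in sham blood and at 3.38 and 5.16 CPM in brain, at least 55.7-fold higher by the group mean (edgeR adjusted p = 0.0148). Its counts passed the filter through the brain libraries alone, so it could only be called higher there. Il27ra, the IL-27 receptor chain, fell from 92.4 and 101 CPM in sham blood to 1.10 and 1.11 CPM in brain (edgeR adjusted p = 0.000195). Il12rb2, an IL-12 and IL-35 receptor chain, fell from 7.80 and 8.01 CPM to 0 and 0.737 CPM (edgeR adjusted p = 0.0300). With 8 and 0 counts in brain, Il12rb2 passed the filter through blood, so with TMM scaling it could only be called lower in brain. Of the 9 genes of this list 6 were tested, of which 1 was higher and 2 were lower against sham blood. Scaling to T cell identity genes called 2 of the 6 higher and 0 lower, beside 11815 higher and 13 lower of all 12424 genes.

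Of the 9 further ligands and receptors of the IL-10 family, 1 passed the filter. This was Il20rb, at 3.26 to 4.67 CPM in sham blood and 1.198 to 1.92 CPM in brain (edgeR adjusted p = 0.186). Il19, Il22, Il22ra1 and Ifnlr1 had no counts in any library.

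TGF-beta ligands and the genes that store and activate them numbered 13, of which 6 were tested, and all 6 were higher in brain than in sham blood, with 4 of the 6 higher than in tMCAO blood. Thbs1, which encodes the latent TGF-beta activator thrombospondin-1, was at 3.21 and 13.6 CPM in sham blood and 769 and 2662 CPM in brain (edgeR adjusted p = 0.00421). Nrros, which anchors latent TGF-beta1 on microglia and macrophages, rose 5.11-fold (edgeR adjusted p = 0.00183). Itgav, a chain of integrins that release TGF-beta, rose 5.87-fold. Of the other integrin chains on the list, Itgb6 had no counts in any library and Itgb8 had 1 and 0 counts in brain. Furin, the protease that cleaves the precursor, rose 11.6-fold, and Ltbp3, a latent TGF-beta binding protein, rose 5.40-fold. Tgfb3 was at 0 and 0.0513 CPM in sham blood and 2.03 and 2.195 CPM in brain (edgeR adjusted p = 0.0357). This gene passed the filter on low counts through the brain libraries alone, so it could only be called higher there. Tgfb2 and Lrrc32, which encodes the GARP anchor used by regulatory T cells, had no counts in sham blood, tMCAO blood or brain.

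Of 19 receptors, SMADs and their regulators 18 were tested, and 7 were higher and 1 lower in brain than in sham blood. Acvrl1 and Eng, a type I receptor and a coreceptor known from endothelial cells, were at 7.78 to 15.3 and 5.85 to 9.31 CPM in brain and under 1 CPM in sham blood (edgeR adjusted p = 0.0137 and 0.00597). Ski and Skil, corepressors of SMADs, rose 6.45-fold and 5.24-fold, and Tgif1, another corepressor, rose 3.98-fold. Smurf2, a ubiquitin ligase that works with SMAD7, rose 2.92-fold. Pmepa1, an inhibitor induced by TGF-beta, was at 0.257 and 1.12 CPM in sham blood and 61.2 and 73.5 CPM in brain (edgeR adjusted p = 0.00114). Trim33, a ubiquitin ligase that acts on SMAD4, fell from 32.1 and 43.2 CPM to 13.6 and 14.9 CPM (edgeR adjusted p = 0.0353). This direction turned with scaling to T cell identity genes, by which all 18 were called higher, as were 11815 of all 12424 genes. Smad2 and Smad4, the partners of SMAD3, did not pass, at log2 fold changes of 0.00 ± 0.242 and 0.76 ± 0.378 (SE).

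Of 9 response genes of TGF-beta 8 were tested, with 4 higher and 2 lower in brain than in sham blood. Tgfbi was at 1.07 and 6.16 CPM in sham blood and 703 and 1562 CPM in brain (edgeR adjusted p = 0.00133). Cdkn1a, the cell cycle inhibitor p21, was at 8.01 and 17.2 CPM in sham blood, at 0.526 and 1.35 CPM in tMCAO blood and at 570 and 870 CPM in brain. It was higher in brain than in sham blood (edgeR adjusted p = 0.000791) and was the pathway gene that edgeR called lower in tMCAO blood than in sham blood (edgeR adjusted p = 0.0463). DESeq2 called Cdkn1a lower there as well (adjusted p = 1.56e-08), and with it Il12a, Nfil3, Skil, Tgif1 and Tgfbi, whose edgeR adjusted p were 0.243, 0.150, 0.159, 0.171 and 0.187. Id3, an inhibitor of helix-loop-helix factors, rose 4.78-fold (edgeR adjusted p = 0.00609). Itgae, the CD103 chain that TGF-beta induces in CD8+ T cells, fell from 7.50 and 8.73 CPM to 0.0915 and 0.829 CPM (edgeR adjusted p = 0.0336). With 9 and 1 counts in brain, Itgae passed the filter through blood, so with TMM scaling it could only be called lower in brain. Nedd9, a scaffold protein, fell from 139 and 155 CPM to 22.4 and 29.4 CPM (edgeR adjusted p = 0.00911). Scaling to T cell identity genes called 6 of these 8 genes higher and 0 lower, beside 11815 higher and 13 lower of all 12424 genes. The higher genes of the list thus include Tgfbi and Cdkn1a, and the lower ones include Itgae.

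**Figure D5:**
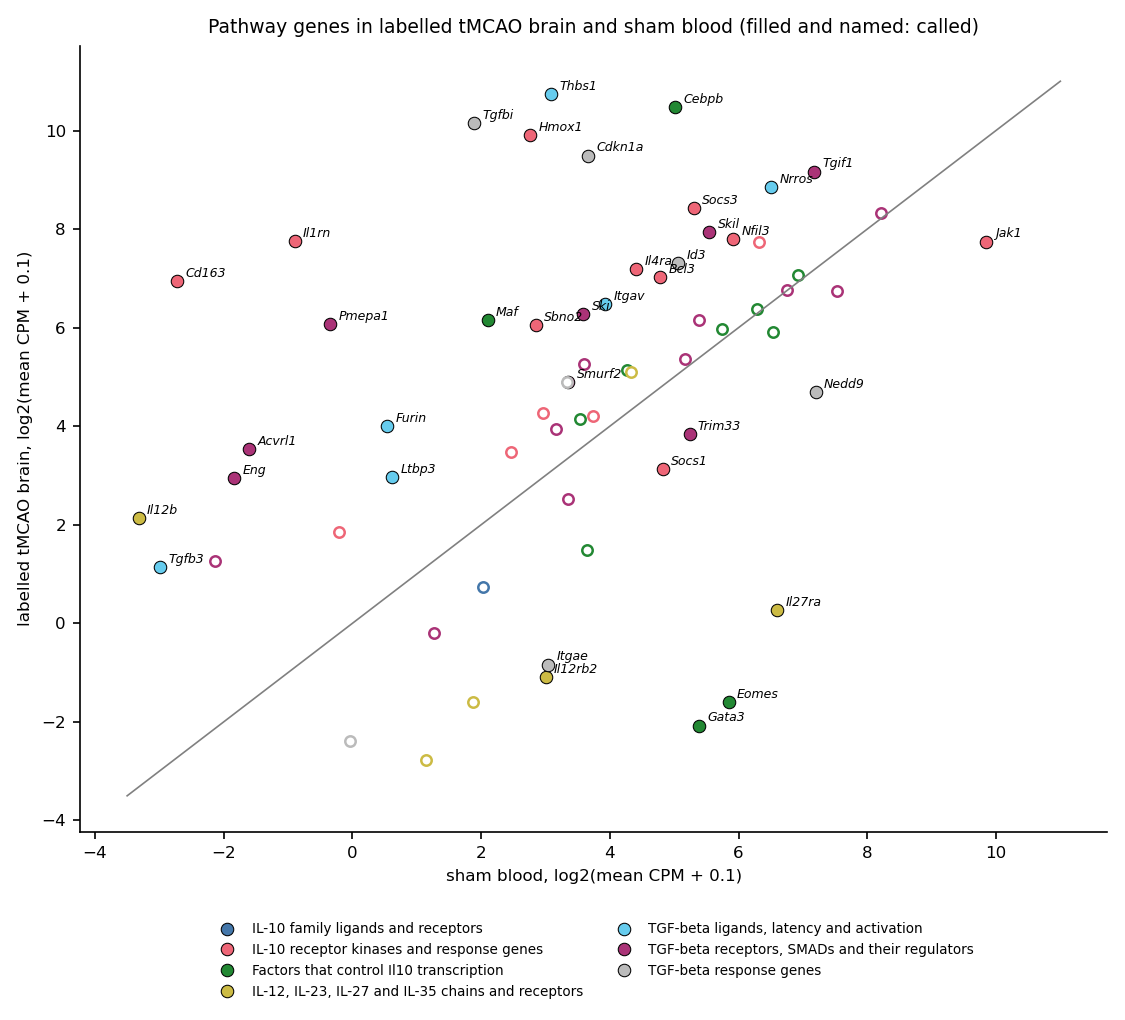
Mean level of 64 of the 65 tested pathway genes in sham blood (x axis) and in the libraries labelled tMCAO brain (y axis), as log2(mean CPM + 0.1), colored by list. Filled and named points were called by edgeR, 27 above and 9 below the diagonal, which marks equal levels. With scaling to T cell identity genes 57 of the 65 were called higher and 0 lower, beside 11815 higher and 13 lower of all 12424 genes.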

How the data were processed

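The study sorted CD8+CD122+CD49dlow TRLs, made cDNA with a SMART-Seq ultralow input kit and Nextera XT libraries, and sequenced them as paired-end reads of 75 bp. Reads were checked with FastQC and mapped to GRCm38 (mm10) with TopHat, per the labels and methods. The authors deposited raw counts and FPKM values per gene symbol. The methods name Cufflinks for abundance, R/Bioconductor for counts and FPKM, and Ensembl IDs for genes. The counting package, its strand setting, the annotation release and the version of TopHat are items not given in the sources used here. For calls the methods name DESeq2, and the thresholds used here (adjusted p under 0.05, fold change over 2) are those of the study's volcano plots.

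The deposited counts were tested with edgeR 4.0.16 (R 4.3.3): filterByExpr (minimum 10 counts, total 15), TMM, glmQLFit and glmQLFTest on all 6 libraries in 1 fit with 3 residual degrees of freedom, and Benjamini-Hochberg adjustment over 12424 genes. The SE is the size of a log2 fold change divided by the square root of its F. The 5 lines that name no gene (43.0% to 45.6% of reads without a feature and 14.0% to 22.0% without a unique position) and 27 lines with dates for symbols (0.0804% to 0.140%) were left out. Of 24572 deposited FPKM lines, 22283 with complete values of 1 symbol were used, on log2(FPKM + 1) with limma 3.58.1 and a minimum of 1 FPKM in 2 libraries. Log2 differences of low FPKM are understated by the pseudocount. TMM factors were 0.780 to 1.21.

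The 9 genes, the pathway lists and the marker lists were chosen with earlier results of these data known. Named were the 9 genes, called pathway genes and up to 4 with the smallest p per list, sort markers, and the 2 genes with the highest correlation to each of the 9, some of which are not reported here. Ifnar2, Gm16712, Gm21970, Fcer1g, Tmem119, Csf1r, Adgre1, Ly6c2 and Ccr2 were among other genes named after their values were seen. So were untested or uncalled pathway genes. Alternatives were DESeq2 1.42.0, limma-voom, other scalings, filters and thresholds, FPKM, a replicate block and leaving out each library. The testing code was tested on simulated data. Reads have no molecular identifiers, so floors cover counting error only.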

Additional observations from a re-analysis of the deposited data

How the results depend on the processing

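Depth limits Il10 and Ebi3 in blood, where 0 to 90 counts were found per library, and 2 libraries a group limit each test. Of the 9 genes, those called higher in brain than in sham blood numbered 5, and 3 with library size alone, 9 with scaling to T cell identity genes, 2 on log2(FPKM + 1), 1 on log2(FPKM + 0.1), 1 on log2(FPKM + 1) with no filter, and 3 at an adjusted p under 0.01. The FPKM settings held 8 of the 9 genes, since Il10rb had missing values. Those called higher in brain than in tMCAO blood numbered 7, and 2, 2, 1, 1 and 4 with library size alone, the 3 FPKM settings in the same order and an adjusted p under 0.01. Counts of all genes called also moved with library size alone, scaling to T cell identity genes and leaving out 1 library, as given above. Shares of all genes are not given here for the FPKM settings or the stricter adjusted p. The counts in those settings are thus not read as particular to the 9 genes. The 1 gene called lower in tMCAO blood than in sham blood, Ebi3, was called in 0 of the fits with edgeR on the blood groups alone, limma-voom, log2(FPKM + 1) with or without a filter, and an adjusted p under 0.01. Library size alone called 1 gene lower, Smad3, in brain against each blood group, where 0 had been called. Leaving out 1 library gave 1 to 7 genes higher in brain than in sham blood, 3 to 7 higher in brain than in tMCAO blood, and 0 to 3 lower in tMCAO blood than in sham blood. Smad3 reversed with scaling to T cell identity genes, to log2 fold changes of 6.67 over sham blood and 6.84 over tMCAO blood, a scaling that moved the median of all genes by 7.23 and 7.43. The cause of the other changes was not tested.

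The libraries share replicate numbers but no stated source, and deviations from the group means of same-numbered libraries correlated at -0.049, -0.059 and 0.076 over 9386 genes. With the replicate number as a block, 5 of the 9 genes were called higher in brain than in sham blood and 6 higher than in tMCAO blood, where Il10 was lost (edgeR adjusted p = 0.0503). The block called 0 lower in tMCAO blood, where the edgeR adjusted p of Ebi3 was 0.0628. The share of all genes called with the block is not given here, so these counts are not read as particular to the 9 genes.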
